A study of Mus musculus with 4 samples.

Results

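The Fc gamma receptors of the mouse were followed in single-cell RNA sequencing of subcutaneous Lewis lung carcinoma (LLC) tumors, 72 h after hypofractionated radiotherapy. The group was chosen by name and holds 5 of the 18605 genes listed in every library: the activating receptors Fcgr1, Fcgr3 and Fcgr4, the inhibitory receptor Fcgr2b, and Fcer1g, the signalling chain that the activating receptors share. LLC is a mouse lung carcinoma cell line, which was grown under the skin of C57/BL6N mice aged 6 to 8 weeks. Tumors of the radiotherapy group (RT) were given 24 Gy as 3 fractions of 8 Gy, starting on day 7 after injection, and each of the 3 RT libraries (RT1, RT2 and RT3) was 1 sample. The control group (NT) was mock treated and was 1 library, which the study describes as a mix of 3 tumors. With 1 control library there was no test between NT and RT, and treatment cannot be told apart from the library: differences are given as sizes, with the spread (SD) over the 3 RT libraries. The libraries held 69667759 UMIs (unique molecular identifiers, 1 for each captured RNA molecule) in NT, 78585759 in RT1, 108699844 in RT2 and 85660188 in RT3, and 55058 of 55805 cell barcodes were kept. RT2 stood apart in how it was deposited, since its table listed 18605 genes and no cell above 11.95% mitochondrial UMIs, against 32285 genes and cells above 90% in the other libraries. Among the kept cells, 1310 barcode sequences occurred in more than 1 library.

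Fc gamma receptors bind the constant part of IgG antibodies and so let myeloid and NK cells take up or kill what the antibodies have coated. Fcgr1 is the high-affinity receptor, while Fcgr3 and Fcgr4 bind IgG in immune complexes. All 3 need the Fcer1g chain, whose cytoplasmic activation motif recruits the kinase Syk. Fcgr2b carries its own inhibitory motif, which recruits the phosphatase encoded by Inpp5d and dampens activating signals in the same cell, and mouse NK cells are known for carrying Fcgr3 as their Fc gamma receptor.

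The genes' identifiers in the files were ENSMUSG00000015947 for Fcgr1, ENSMUSG00000059498 for Fcgr3, ENSMUSG00000059089 for Fcgr4, ENSMUSG00000026656 for Fcgr2b and ENSMUSG00000058715 for Fcer1g. Their promoters all matched in the RefSeq table of build GRCm38.p6, another build than the GRCm39 named in the processing notes, so positions below hold for GRCm38.p6 only. Fcgr2b, Fcgr4, Fcgr3 and Fcer1g lie near each other on chromosome 1, and Fcgr1 lies on chromosome 3. The 250 bases before the start site were searched on both strands for the letters GAAA, 2 bases of any kind and GAAA again (the form bound by interferon regulatory factors) and GAGGAA (the core bound by the myeloid factor PU.1). The promoters of the 3 activating receptors are shown because they held every match among the 5 genes, with the matches in capitals, as chr3:96293970-96294219 (minus strand), chr1:171018676-171018925 (plus strand) and chr1:171059404-171059653 (minus strand).
Fcgr1: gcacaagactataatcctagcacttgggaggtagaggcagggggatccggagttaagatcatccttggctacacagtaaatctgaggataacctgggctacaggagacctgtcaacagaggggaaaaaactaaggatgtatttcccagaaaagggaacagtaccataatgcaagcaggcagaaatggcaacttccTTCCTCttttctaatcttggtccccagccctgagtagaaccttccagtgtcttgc
Fcgr4: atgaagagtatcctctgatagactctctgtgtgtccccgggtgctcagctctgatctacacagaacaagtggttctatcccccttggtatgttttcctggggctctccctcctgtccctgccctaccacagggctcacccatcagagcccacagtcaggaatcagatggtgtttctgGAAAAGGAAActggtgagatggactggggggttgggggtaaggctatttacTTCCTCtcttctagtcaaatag
Fcgr3: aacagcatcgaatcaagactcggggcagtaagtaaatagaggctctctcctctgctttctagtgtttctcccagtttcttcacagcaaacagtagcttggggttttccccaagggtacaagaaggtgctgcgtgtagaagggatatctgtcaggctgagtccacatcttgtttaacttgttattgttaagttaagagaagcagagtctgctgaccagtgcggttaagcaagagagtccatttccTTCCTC
The interferon regulatory factor form was found in Fcgr4 alone, 73 bases before the start, and in 2.98% of all 32851 promoters of this length. GAGGAA was found, on the opposite strand, 55 bases before the start of Fcgr1, 22 before that of Fcgr4 and 6 before that of Fcgr3, and in 23.3% of all promoters. No marked stretch overlapped another. These are matches of letters, and no binding was measured.

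Fcgr2b and Fcgr3 are alike in sequence, so reads could be split between them. In the GENCODE vM21 transcripts, 233 of the 1317 stretches of 31 bases in the longest Fcgr3 transcript also occurred in Fcgr2b, but none of the 470 stretches in its last 500 bases did, and a 3′ library reads mainly there. Antisense gene Gm38204 overlaps Fcgr2b, and strand use in counting was not stated.

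The receptors were found in myeloid cells. Macrophages and monocytes, named from clusters by marker genes, together held between 75.6% (Fcgr1 in RT3) and 87.1% (Fcgr3 in RT1) of all UMIs of each member in each library. Averaged over the 4 libraries, Fcgr2b stood at 2573 ± 682 CPM (UMIs of the gene among each 1000000 UMIs of the cell type, SD over 4 libraries) in macrophages, 1277 ± 250 CPM in monocytes, 459 ± 176 CPM in dendritic cells and 192 ± 110 CPM in neutrophils. In tumor cells, which should lack the receptors, its level was 7.36 ± 2.79 CPM, and the source of those UMIs was not tested. Fcgr4 stood at 529 ± 74.5 CPM in macrophages, 285 ± 71.8 CPM in monocytes, 150 ± 116 CPM in neutrophils and 79.9 ± 53.0 CPM in dendritic cells, and the neutrophils overlapped both neighbours in their spread. Fcgr3 had its highest mean in macrophages at 1146 ± 427 CPM, then monocytes at 669 ± 203 CPM and neutrophils at 468 ± 253 CPM, and these neighbours overlapped in their spread, although macrophages exceeded monocytes in each library. Fcgr1 was the exception, with 137 ± 51 CPM in monocytes and 93.6 ± 10.8 CPM in macrophages, which also overlapped. Fcer1g reached beyond the myeloid cells: it stood at 4018 ± 396 CPM in macrophages, 3240 ± 132 CPM in monocytes and 1713 ± 79.0 CPM in NK cells, and was at 129 ± 32.4 CPM in T cells and 11.3 ± 5.06 CPM in tumor cells. Since cell types came from clustering the same cells, these orders are descriptions.

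The markers of macrophages and monocytes were detected in the cells so labelled, while dendritic cells and the neutrophils and NK cells of NT were less clear, with their marker values given below. In monocytes the 9 monocyte markers summed to 10930 CPM in NT, 13490 in RT1, 10963 in RT2 and 18951 in RT3, with Thbs1 the most abundant, none at 0 in NT and 7 above NT in every RT library. All 12 macrophage markers were detected in the macrophages of every library. Their summed level was 11386 CPM in NT, 18563 in RT1, 20134 in RT2 and 16464 in RT3, so that it moved in the same direction as several results below, and 9 of the 12 were above NT in every RT library. C1qb, the most abundant on average, stood at 1705 CPM in NT, 3677 in RT1, 4829 in RT2 and 3468 in RT3. The fibroblast markers in the macrophages moved likewise, from a sum of 31.2 CPM in NT to 82.5, 59.3 and 102 CPM in RT, with Col3a1 the most abundant and 6 of 7 genes above NT in every RT library. In the same macrophages the neutrophil markers went from 21.1 CPM in NT to 92.7, 130.8 and 84.4 CPM, with Csf3r the most abundant, 7 of 9 above NT in every RT library, and Retnlg, G0s2 and Ly6g at 0 in NT. The monocyte markers in the macrophages summed to 1911 CPM in NT and 1833, 1779 and 3003 CPM in RT, with Thbs1 the most abundant, 7 of 9 above NT in every RT library, and Hp at 0 in NT. Among them Ly6c2 was at 14.7 CPM in NT and 59.1, 96.2 and 155 CPM in RT. In monocytes the fibroblast markers went from 41.6 CPM in NT to 117, 85.5 and 162 CPM, with Col3a1 the most abundant and all 7 above NT in every RT library. The neutrophil markers in the monocytes went from a sum of 103 CPM in NT to 412, 420 and 393 CPM, with 8 of 9 genes above NT in every RT library. Il1r2 was the most abundant of these, and S100a9, Retnlg, Cxcr2 and Ly6g were at 0 in NT. The part of these markers in the results was not tested.

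Fcgr3, the activating receptor for IgG complexes, had the largest mean log2 ratio of RT over NT among the members in macrophages and in monocytes, although in monocytes Fcgr1 exceeded it in RT2 and, with RT3 left out, on average (1.11 against 1.07). In macrophages it stood at 547 CPM in NT (exact Poisson 95% interval 518 to 578, from 1298 UMIs), and at 1468 CPM in RT1, 1438 CPM in RT2 and 1131 CPM in RT3. All RT libraries lay above NT and outside its counting interval, and the mean log2 ratio was 1.29 ± 0.21 (SD, n = 3), or 2.44-fold. In monocytes Fcgr3 stood at 390.3 CPM in NT (347 to 437, from 300 UMIs), 830.0 in RT1, 809 in RT2 and 648 in RT3, again with no overlap, and the mean log2 ratio was 0.96 ± 0.20, or 1.94-fold. Intervals here and below cover counting error only. Fcgr3 was thus 1 of 5 members that were at least 1.5-fold higher than NT in every RT library, the size rule used throughout, in macrophages and in monocytes alike. Among all genes with at least 10 UMIs in NT or on average in RT, 11.3% of 10909 passed that rule upward in macrophages and 14.6% of 9237 did in monocytes. The downward shares were 7.03% and 4.01%, and no member was among them. The median log2 ratio over all these genes was 0.03 in macrophages and 0.13 in monocytes. The mean ratio of Fcgr3 was above that of 94.2% of the genes in macrophages and 87.4% in monocytes.

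**Figure D1:**
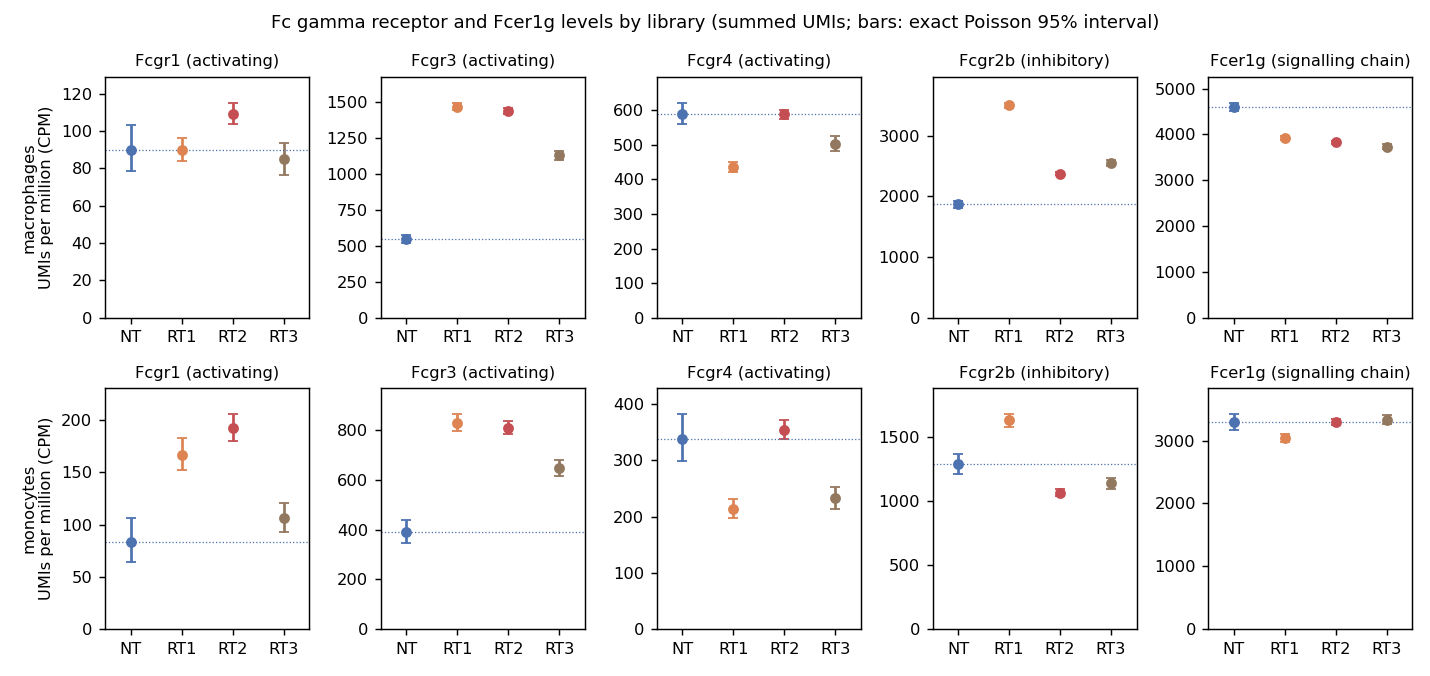
Level of each member in macrophages (upper row) and monocytes (lower row), in CPM (vertical axes from 0), for the NT library and the 3 RT libraries (horizontal axis). Points are the summed UMIs of a library and bars their exact Poisson 95% interval, and the dotted line marks NT. Fcgr3 in all 3 RT libraries lay well above NT in both cell types, Fcer1g lay below NT in every RT library in macrophages and in RT1 alone clearly so in monocytes, Fcgr1 lay above NT in monocytes, and Fcgr2b above NT in macrophages.

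The other activating receptors did not pass the size rule. Fcgr4 in macrophages stood at 590.0 CPM in NT (559 to 622), 435 in RT1, 588 in RT2 and 504 in RT3. RT2 was level with NT within counting error while RT1 and RT3 were lower, with a mean log2 ratio of -0.22 ± 0.22. In monocytes Fcgr4 was at 338 CPM in NT, 214 in RT1, 354 in RT2 and 233 in RT3, so that RT2 again stood with NT, and the mean log2 ratio was -0.38 ± 0.39. With cells gated one by one on their markers, in place of clusters, it turned to 0.42. Fcgr1, the high-affinity receptor, was at 90.2 CPM in the macrophages of NT, 89.9 in RT1, 109 in RT2 and 84.9 in RT3, with RT values on both sides of NT. In monocytes it was at 83.3 CPM in NT (64.1 to 106, from 64 UMIs), 167 in RT1, 193 in RT2 and 106 in RT3. All 3 lay above NT, RT3 within its counting interval, and the mean log2 ratio was 0.85 ± 0.45. Without RT3 both remaining libraries were past the size rule, with a mean of 1.11.

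The inhibitory receptor Fcgr2b was higher in the macrophages of each RT library but by unequal amounts. It stood at 1868 CPM in NT (1813 to 1923), 3499.7 in RT1, 2374 in RT2 and 2552 in RT3. RT1 was 1.87-fold above NT while RT2 and RT3 were 1.27-fold and 1.37-fold above it, giving a mean log2 ratio of 0.57 ± 0.30. In macrophages, 35.5% of all genes tested were above NT in every RT library and 31.3% below it, and in monocytes these shares were 42.2% and 23.1%. In monocytes Fcgr2b was at 1284 CPM in NT, 1627 in RT1, 1063 in RT2 and 1135 in RT3. Only RT1 exceeded NT, and the mean log2 ratio of -0.04 ± 0.33 was smaller than its spread. All 3 RT libraries exceeded NT with cells gated one by one, at 0.34, and at clustering resolution 0.5, at 0.20.

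Fcer1g, the shared chain, was slightly lower in RT macrophages. Its level was 4599 CPM in NT (4513 to 4686), 3917 in RT1, 3828 in RT2 and 3726 in RT3. No RT interval reached that of NT, and the mean log2 ratio was -0.27 ± 0.04, short of the size rule. That spread is among the RT libraries only and holds no variation of NT. The mean ratio of Fcer1g was above that of 29.0% of the genes tested in macrophages. In monocytes Fcer1g was at 3289, 3045, 3292 and 3334 CPM in NT, RT1, RT2 and RT3, with a mean log2 ratio of -0.03 ± 0.07. Set against the summed activating receptors, which use it, the chain had 3.75 UMIs per activating receptor UMI in NT macrophages, 1.97 in RT1, 1.79 in RT2 and 2.17 in RT3. The corresponding ratios in monocytes were 4.05 in NT and 2.52, 2.43 and 3.38 in RT. These ratios combine a higher sum of activating receptors with a chain that was lower or level.

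The balance of activating against inhibitory receptor was taken as the percent of activating UMIs (Fcgr1, Fcgr3 and Fcgr4) among those and Fcgr2b UMIs. A UMI counts a molecule at its 3′ end whatever its length, so no length scaling was applied. In macrophages the activating share was 39.7% in NT (exact Clopper-Pearson 95% interval 38.5 to 40.8), 36.3% in RT1, 47.4% in RT2 and 40.3% in RT3. RT1 lay below NT, RT2 above it and RT3 within its interval, and the mean difference of 1.65 percentage points was smaller than the spread of 5.61. It turned to -1.38 without RT2. In monocytes the activating share was 38.7% in NT (36.3 to 41.2), 42.7% in RT1, 56.1% in RT2 and 46.5% in RT3. All 3 RT libraries lay above NT and outside its interval, by 9.67 ± 6.90 percentage points on average, or 5.85 without RT2.

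Within the activating set, Fcgr3 made up 44.6% of activating UMIs in NT macrophages, 73.7% in RT1, 67.3% in RT2 and 65.7% in RT3. In monocytes it made up 48.1% in NT and 68.6%, 59.7% and 65.7% in RT. Since these shares share a denominator, that of Fcgr4 was lower in turn, at 48.1% of activating UMIs in NT macrophages and 26.2 ± 3.91% (n = 3) in RT, also in RT2, where its CPM was level with NT. The Fcgr3 share was thus higher in both cell types and in each RT library, with no overlap between NT and RT, while the activating share as a whole in macrophages did not hold one direction. Set against Fcgr2b alone, Fcgr3 made up 22.7% of the UMIs of that pair in NT macrophages and 32.7 ± 4.42% in RT, and 23.3% and 37.8 ± 4.88% in monocytes.

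**Figure D2:**
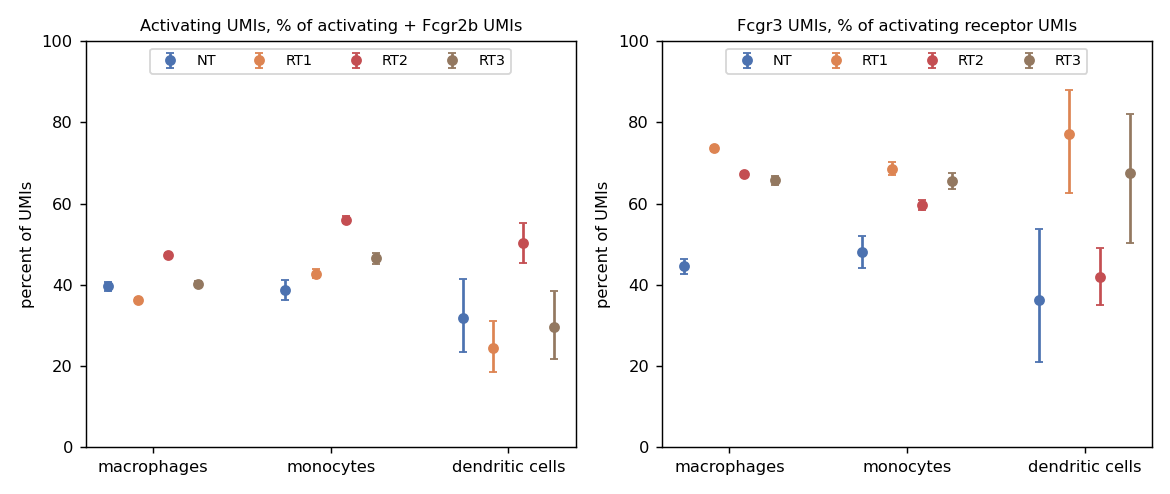
Percent of activating receptor UMIs among activating and Fcgr2b UMIs (left panel) and percent of Fcgr3 UMIs among activating receptor UMIs (right panel), for macrophages, monocytes and dendritic cells (horizontal axes), with 1 point per library and its exact 95% interval. On the left the RT points lay on both sides of NT in macrophages and above it in monocytes, and on the right they lay above NT in both, with RT2 overlapping NT in dendritic cells.

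The members were then followed in the 7 macrophage and 3 monocyte sub-clusters, each given by its leading genes. Fcgr1 and Fcgr4 had their highest mean levels in the sub-clusters led by interferon-induced Ifit genes. Fcgr4 in macrophage sub-cluster 11 stood at 1271, 1134, 1239 and 1092 CPM in NT, RT1, RT2 and RT3, against 739 ± 60.9 CPM (SD, 4 libraries) in the next, sub-cluster 1, which was led by Ccl8 and Vcam1. Fcgr1 stood at 289, 305, 315 and 254 CPM in sub-cluster 11. It stood at 215, 387, 424 and 245 CPM in monocyte sub-cluster 6, also led by Ifit genes, and at or under 142 CPM in every library of the other named sub-clusters. The Fcgr4 promoter shown above held the interferon regulatory factor letters, and that of Fcgr1 did not. Fcgr3 and Fcgr2b did not share that order: both had their highest mean in macrophage sub-cluster 5, led by Lyve1, Ccl8 and Cbr2, with 1343 ± 418 CPM for Fcgr3 and 3238 ± 683 CPM for Fcgr2b. Sub-cluster 1 came next for both, at 1203 ± 476 CPM for Fcgr3 and 2583 ± 700 CPM for Fcgr2b, and overlapped sub-cluster 5 in its spread.

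The higher Fcgr3 in RT was found across these states. All 3 RT libraries were above NT in 10 of 10 macrophage and monocyte sub-clusters, and at least 1.5-fold above it in 7. The mean log2 ratio was largest in the Ifit-led macrophages of sub-cluster 11, at 1.67, where Fcgr3 stood at 404 CPM in NT (282 to 562, from 35 UMIs in 21 cells) and at 1364, 1374 and 1134 CPM in RT. It was 1.46 in the Ccl8-led and Vcam1-led sub-cluster 1 and smallest in sub-cluster 3, at 0.65, whose cells held a median of 840 UMIs. With RT levels weighted to the sub-cluster shares of NT, the log2 ratio was 1.21 in macrophages and 0.97 in monocytes, close to the unweighted 1.29 and 0.96. Fcgr4 was below NT in all RT libraries in 8 of 10 sub-clusters, yet past the size rule in 1 alone, sub-cluster 8 led by Mmp12 and Cxcl5. Fcer1g was below NT in all RT libraries in 7 of 7 macrophage and 0 of 3 monocyte sub-clusters. The sub-clusters are parts of the same libraries, set against the same NT library, so these counts are not independent repeats. No share of all genes with such counts is given beside them.

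**Figure D3:**
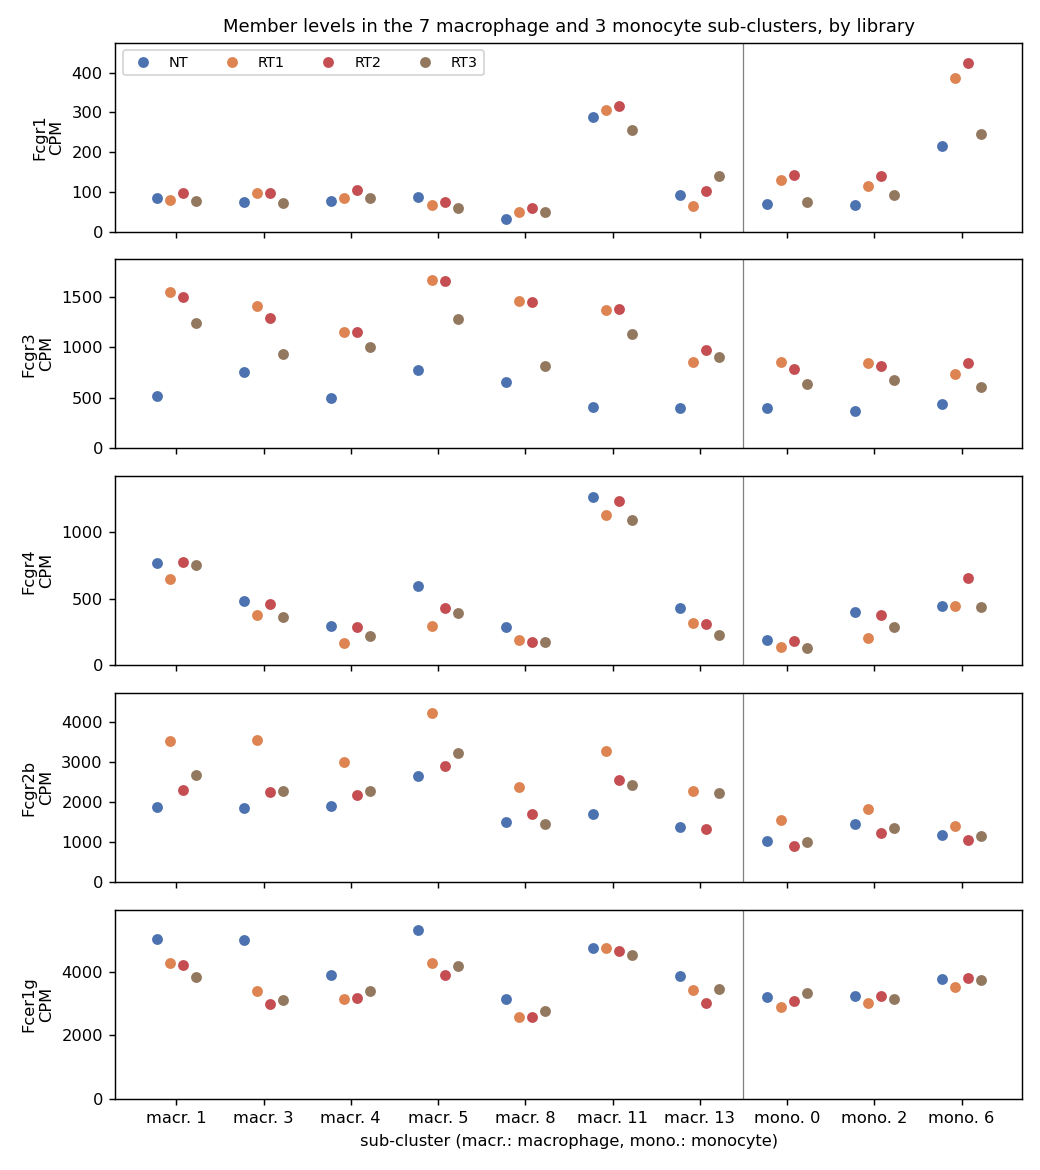
Level of each member (CPM, vertical axes from 0) in the 7 macrophage (left of the line) and 3 monocyte (right) sub-clusters, with 1 point per library. Fcgr1 stood high in monocyte sub-cluster 6 and macrophage sub-cluster 11 and Fcgr4 in sub-cluster 11, while the NT point of Fcgr3 was the lowest of the 4 in all 10 sub-clusters.

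The share of cells with a Fcgr3 UMI was also higher in RT. Such a share rises with the mean level, so it is no separate result and does not show whether more cells carry the receptor. After thinning each cell to 1500 UMIs, 52.6% of 496 NT macrophages held a Fcgr3 UMI (exact interval 48.1 to 57.1), against 84.4% of 1995 in RT1, 82.7% of 2112 in RT2 and 76.5% of 1046 in RT3. In monocytes the shares were 41.3% in NT (34.4 to 48.6, of 196 cells), 65.4%, 64.0% and 56.1%. In tumor cells, which should lack the receptor, the share was 0.112% in NT and 0.373% to 0.748% in the RT libraries. Fcgr4 was held by 51% of thinned NT macrophages and by 36.7%, 47.3% and 41.3% in RT. Fcgr2b was held by 87.9% in NT and 92.5% or more in each RT library, and Fcer1g by over 98% in every library, which leaves little room for a difference. Thinning left out 194 NT macrophages and 274 NT monocytes as too shallow, and median depths before it were 3656 UMIs in the NT macrophages used, 3233 in RT1, 4926 in RT2 and 2964 in RT3. Without thinning, the Fcgr3 shares in macrophages were 65.5% in NT and 84.0%, 86.7% and 74.4% in RT.

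**Figure D4:**
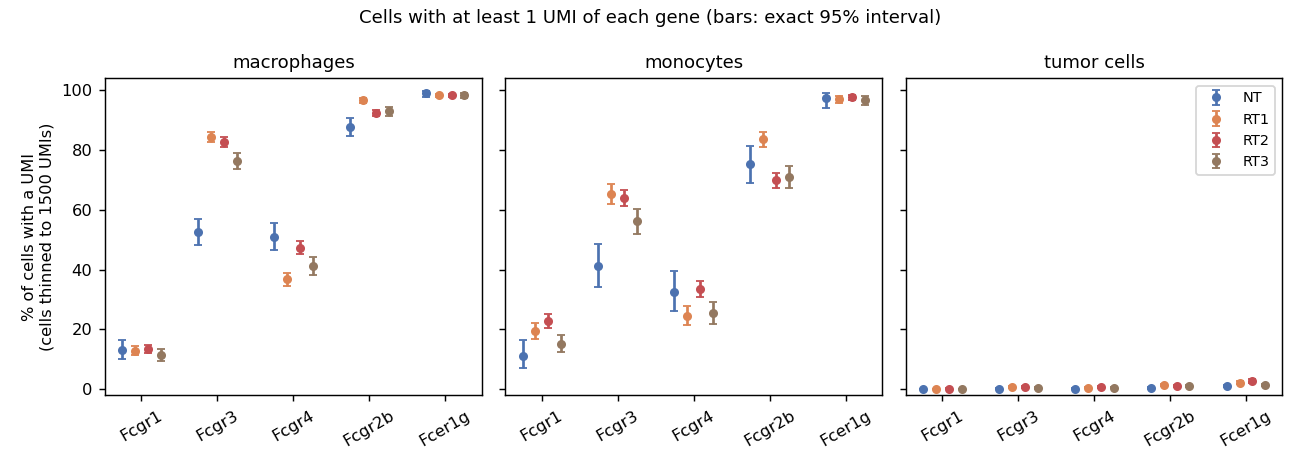
Percent of cells with at least 1 UMI of each member (vertical axis) after thinning to 1500 UMIs, in macrophages, monocytes and tumor cells, with 1 point per library and its exact 95% interval. Fcgr3 was held by a larger share of RT than NT cells in macrophages and monocytes, and tumor cells stayed near 0 for all members.

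Dendritic cells carried little of the activating receptors. Fcgr3 stood at 63.9 CPM in NT (13 UMIs), 178 in RT1, 140.5 in RT2 and 116 in RT3, and passed the size rule with a mean log2 ratio of 1.16 ± 0.31. So did Fcgr1, from 1 UMI in NT, where the ratio was 3.92 in RT1 with a counting interval of 0.388 to 193. Fcgr1 reached the minimum of 10 UMIs through RT alone, which favours an upward call. Over all genes in dendritic cells 10% passed the rule upward and 5.27% downward. With cells gated one by one, Fcgr1 and Fcgr3 had 0 and 3 UMIs in NT, too few for the rule, and the log2 ratio of Fcgr3 was -0.09. At clustering resolutions 0.5 and 1.2 Fcgr1 was not past the rule, with means of 1.02 and 0.93. Macrophage markers in the dendritic cells summed to 570 CPM in NT and 1172, 1634 and 810 CPM in RT, with Cd68 the most abundant and 7 of 12 above NT in every RT library. Monocyte markers summed to 654 CPM in NT and 1201, 1625 and 1416 CPM in RT, with Plac8 the most abundant and 5 of 9 above NT, while dendritic cell markers summed to 4528 CPM in NT and 3107, 2511 and 3415 CPM in RT, led by Ccr7. The part of these markers in the result was not tested. Fcgr4 split the RT libraries, at 108 CPM in NT, 33.8 in RT1, 140.5 in RT2 and 37.0 in RT3.

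Neutrophils of the RT libraries held Fcgr3 at 641 (RT1), 666 (RT2) and 448 CPM (RT3), and Fcgr4 at 136, 276 and 190.2 CPM in that order. The NT values rest on 22 cells with 59054 UMIs, in which Fcgr3 had 7 UMIs (119 CPM) and Fcgr4 0, so that Fcgr4 in RT was at least 2.67-fold, 5.42-fold and 3.74-fold higher against a floor of 3 counts for the library. Those 22 cells went against their label: the summed neutrophil markers were at 5673 CPM, against 27091, 34225 and 23235 CPM in RT, and the tumor gene Rhox5 was at 1135 CPM, against 700.0, 572 and 684 CPM. All 4 members tested passed the size rule upward there, beside 15.7% of all genes upward and 16.2% downward. Of these, Fcgr2b (4 UMIs in NT), Fcgr3 and Fcgr4 reached the minimum of 10 UMIs through RT alone. That filter favours an upward call, so nothing is concluded from those calls. Macrophage markers in these neutrophils summed to 237 CPM in NT and 992, 1680 and 548 CPM in RT, with Cd68 the most abundant, 11 of 12 above NT in every RT library and 8 at 0 in NT. Monocyte markers summed to 2032 CPM in NT and 6587, 4863 and 5303 CPM in RT, with Thbs1 the most abundant, all 9 above NT and 5 at 0 in NT. Their part in the result was not tested. With cells gated one by one none of the 4 calls held: the log2 ratio of Fcgr3 was 0.53, that of Fcer1g turned to -0.67, and Fcgr2b and Fcgr4 had no UMI in NT. Scaling by the median gene ratio, in place of total UMIs, shifted the size factors there by -0.45, -0.57 and -0.40 (log2), and those of NK cells by -0.14, -0.20 and -0.11, which makes the ratios larger by as much.

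In NK cells Fcer1g was the member with a clear level, at 1806 CPM in NT, 1694 in RT1, 1736 in RT2 and 1617 in RT3. At clustering resolutions 0.5 and 1.2 it passed the size rule downward, with mean log2 ratios of -0.61 and -0.73 against -0.10 here. Fcgr3 counted 1 UMI in 95 NT cells, 15 UMIs in 138 RT1 cells, 21 in 178 RT2 cells and 9 in 103 RT3 cells. The ratio to NT was 7.68 (counting interval 1.18 to 323), 6.00 (0.965 to 248) and 5.2 (0.721 to 228). This was past the size rule, beside 13.8% of all genes upward and 7.30% downward. Fcgr3 reached the minimum of 10 UMIs there through RT alone, which favours an upward call. In RT2 and RT3 the difference was not detectable at this depth. The mean log2 ratio of 2.63 became 0.24 and 0.05 at clustering resolutions 0.5 and 1.2 and 0.23 with cells gated one by one, all short of the rule. The label fitted less well in NT, where summed NK markers were at 7828 CPM and T cell markers at 4224 CPM, against at least 11641 and at most 2266 CPM in each RT library. Macrophage RNA was low in these cells, with a summed level of 46.5 CPM in NT and 175, 151 and 67.2 CPM in RT, with C1qb its most abundant gene, and with Ms4a7 at 0 throughout. The 3 C1q genes counted 15, 29 and 4 UMIs in the RT NK cells, too few to set beside the Fcgr3 counts as a ratio. A sub-cluster of 113 cells that could not be named, led by Gzmg, Gzme, Ctsg and Gzmd and nearest to NK cells, held Fcgr3 at 130.4, 106, 133 and 135 CPM in NT, RT1, RT2 and RT3, with at most 2 Fcgr2b UMIs in a library. There the NT level, from 11 UMIs in 12 cells (65.1 to 233 CPM), lay within the range of the RT levels. Of the Fc receptor signalling genes described below, 10 were tested in NK cells, of which 1 passed upward and 2 downward.

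Downstream of the receptors, a fixed list of 16 Fc receptor signalling genes was followed. In macrophages 1 of 16 tested passed the size rule upward and none downward, with a median log2 ratio of -0.09 against 0.03 over all genes, of which 11.3% passed upward and 7.03% downward. That gene was Syk, the kinase that binds the Fcer1g chain, at 29.1 CPM in NT (69 UMIs) and 69.8, 84.3 and 54.7 CPM in RT. Rac2, a small GTPase of phagocytosis, was the most abundant of the list on average. It was at 281 CPM in NT and 574, 498 and 394 CPM in RT, short of the rule. Lyn, a kinase that phosphorylates the chain, came next, at 340.5 CPM in NT and a mean log2 ratio of -0.22 ± 0.14. In monocytes 2 of 15 passed upward: Rac2, from 224 CPM in NT to 614, 522 and 452 CPM, and Was, an actin regulator, from 36.4 to 62.6, 125 and 56.4 CPM. The median over the list was 0.07 there, against 0.13 over all genes, of which 14.6% passed upward and 4.01% downward.

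Of the 13 genes of inhibitory signalling, 1 passed upward and 2 downward in macrophages, beside 11.3% and 7.03% of all genes. Sirpa, the inhibitory receptor for Cd47, passed upward, from 157 CPM in NT to 399, 393 and 266 CPM in RT. Dok1, an adaptor, and Siglece, an inhibitory lectin, passed downward, the latter from 43.4 CPM to 11.3, 13.8 and 6.58 CPM. Inpp5d, the phosphatase that Fcgr2b recruits, was level, at 117 CPM in NT and 147, 115 and 115 CPM in RT. In monocytes none of the 13 passed, beside 14.6% of all genes upward and 4.01% downward, with a median log2 ratio of 0.33 against 0.13 over all genes. Of these genes 7 were above NT in every RT library and 2 below, beside 42.2% and 23.1% of all genes.

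Next came the chains and receptors that use or parallel Fcer1g. Of the 8 of 11 tested in macrophages 3 passed upward and none downward, with a median log2 ratio of 0.67, and of the 7 tested in monocytes 1 did, with a median of 0.50. The shares of all genes upward were 11.3% in macrophages and 14.6% in monocytes. Tyrobp, the adaptor closest in function to Fcer1g, stood at 293 CPM in NT macrophages and 575, 895 and 579 CPM in RT, and at 304 CPM in NT monocytes and 685, 1081 and 726 CPM in RT. Its ratio thus pointed the opposite way to that of Fcer1g in the same macrophages. Clec4n, a lectin receptor that signals through Fcer1g, and Trem2, a lipid receptor that signals through Tyrobp, passed upward in macrophages with mean log2 ratios of 0.87 ± 0.16 and 0.70 ± 0.03.

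Of the other Fc receptors, 3 of 10 could be tested. Fcgrt, which recycles IgG within cells, was at 130.2 CPM in NT macrophages and 271, 192 and 199.5 CPM in RT, and passed downward in monocytes, where it counted 16 UMIs in NT. Fcrls went the other way in macrophages, at 118.8 CPM in NT and 99.3, 24.3 and 20.2 CPM in RT. Neither passed the size rule in macrophages. Of the immunoglobulin constant genes, Ighg2b, the IgG heavy chain listed in every library, had no UMI in macrophages or monocytes. Ighm, the heavy chain of IgM, which these receptors do not bind, counted 118 UMIs in NT macrophages (49.7 CPM, against 5.02, 10.3 and 6.81 CPM in RT), the light chain gene Igkc counted 12, and both passed downward. The Igkc count is near the minimum of 10 UMIs, and reaching that minimum through NT favours a downward call, so nothing is concluded from it. Over all genes 7.03% passed downward in macrophages and 4.01% in monocytes. The summed B cell markers there were at 5.06 CPM in NT and 0.913, 1.48 and 2.27 CPM in RT. Genes for the IgG1, IgG2c and IgG3 heavy chains were not analysed here.

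Fcgr1 and Fcgr4 are known to be induced by interferon gamma, and 14 other genes of that response were listed, of which 8 were below NT in every RT library in macrophages and 1 above, beside 31.3% and 35.5% of all genes. None passed the size rule upward and 2 passed downward, Cxcl10, a chemokine, from 3971 CPM to 1403, 1391 and 2623 CPM, and Ciita, the regulator of class II antigen presentation, from 21.9 to 2.51, 9.34 and 4.54 CPM, and the median log2 ratio was -0.39. In monocytes 1 of 14 passed, Ciita again and downward, with a median of -0.38. The shares of all genes downward were 7.03% and 4.01%. Of the 14 listed genes, 4 were below NT in every RT library in monocytes and 1 above, beside 23.1% and 42.2% of all genes. Gbp2, an induced GTPase, stood at 735 CPM in NT monocytes, 364 in RT1, 1043 in RT2 and 554 in RT3.

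The genes with the pattern most like each member were sought over 35 points, each 1 cell type in 1 library, among 6304 genes, by Pearson's r of log2(CPM + 10). The points share libraries and depth, so r is a description. Fcgr3 was most like Ccl6 (r = 0.97), Wfdc17 (0.96) and Itgam (0.96), and Fcgr2b most like Ccl9 (0.97), Lyz2 (0.97) and Cd68 (0.97). Fcgr4 was most like Lrrc25 (0.97), Clec4a2 (0.94) and Adgre1 (0.94), and Fcgr1 most like Msr1 (0.96), Clec4a2 (0.95) and Ms4a8a (0.95). Fcer1g was most like Tyrobp (0.95), Ccl4 (0.94) and Pik3ap1 (0.94). With a pseudocount of 1 in place of 10, all 3 of these genes were kept for Fcgr4, 2 for Fcgr1, Fcgr3 and Fcer1g each, and 1 for Fcgr2b. The lowest r among the members themselves was 0.71, between Fcer1g and Fcgr1, and the highest was 0.92, between Fcgr3 and Fcgr4. With a pseudocount of 1 both pairs changed: the lowest was 0.71, between Fcer1g and Fcgr2b, and the highest 0.91, between Fcgr1 and Fcgr4.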

How the data were processed

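Tumors were dissociated, and 3′ libraries were made with the SeekOne MM kit. The processing notes name STAR 2.5.1b, featureCounts of Subread 1.6.4, Cell Ranger and build GRCm39. The authors deposited UMI counts per gene and cell for each library, as sparse matrices with gene and barcode lists, and no cell annotation was used. The filter kept cells with 200 genes or more and no more than 20% mitochondrial UMIs, on the 18605 genes listed in every library. Counts were scaled to 10000 per cell, and 2000 variable genes, without the members and listed genes, 30 principal components, a Harmony correction by library and Leiden clustering (leidenalg 0.10.2, resolution 0.8) gave clusters, named from fixed markers. No cell was removed as a doublet, and an alternative left out the 8% of each library with the highest doublet score. In all, 21014 cells stayed unnamed, among them clusters with fibroblast genes that carried Rhox5 as tumor cells did, a rule settled after seeing the data. UMIs were summed per library and cell type. Named genes were the members, listed genes past the size rule or else abundant in macrophages, and the 3 genes most like each member. The size rule was checked on simulated counts. Members and lists were chosen with earlier results of these data known. A gene at 0 in NT was set to a floor of 3 counts. Alternatives covered mitochondrial limits, cell naming, doublets, weights, scaling, thinning and leaving out each RT library. Single genes of the lists and 1 promoter motif are not reported here.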

Additional observations from a re-analysis of the deposited data

Results flagged for a closer look

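The ratio of Fcer1g pointed in opposite directions in different cell types, with every RT library on one side of NT in one type and on the other side in the other, and the difference between the cell types was not tested. Its mean log2 ratio was -0.27 in macrophages and -0.10 in NK cells, against 0.13 in dendritic cells and 1.15 in neutrophils. The neutrophil value rests on 22 NT cells. The opposition depended on how cells were named: with cells gated one by one, every RT library was below NT in dendritic cells (-0.29) and neutrophils (-0.67) as well. It depended on other settings too. In dendritic cells the RT libraries lay on both sides of NT with weights by the sub-cluster shares of NT, and with scaling by the median gene ratio. In NK cells they did so with doublets or with shared barcodes left out. The NK cell value was -0.61 and -0.73 at clustering resolutions 0.5 and 1.2, past the size rule downward, and turned to 0.05 with scaling by the median gene ratio.

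Some members also passed the size rule in sub-clusters that entered no named cell type. No share of all genes past the rule is given for these sub-clusters, so nothing is concluded from the calls. Sub-cluster 9, led by Cd52, Crip1 and ribosomal genes, had a mean log2 ratio of 0.95 for Fcgr3. Sub-cluster 7, which was led by the stromal genes Ccn1, Dpt and Col3a1, had 1.37 for Fcgr3 and 1.00 for Fcgr2b. Sub-cluster 10, which was led by Rhox5, had -1.08 for Fcgr4 and -0.88 for Fcer1g. The cells of sub-clusters 7 and 10 held medians of 7517 and 10318 UMIs, more than any named myeloid sub-cluster.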

How the results depend on the processing

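Fcgr3 kept its direction and stayed past the size rule in macrophages and monocytes under each of the 9 alternatives for which the rule was recomputed with all libraries. Across all alternatives its log2 ratio ranged from 1.15 to 1.41 in macrophages and from 0.89 to 1.10 in monocytes. With cell types gated on single cells, the log2 ratio was -0.31 for Fcer1g in macrophages, 0.34 for Fcgr2b and 0.42 for Fcgr4 in monocytes, and in dendritic cells Fcgr3 turned to -0.091 and in neutrophils Fcer1g to -0.67. At resolution 0.5 Fcgr1 in macrophages was at -0.14, and at resolution 1.2 Fcer1g was at -0.31 in macrophages and -0.17 in monocytes. With every cell weighted alike, Fcgr1 in macrophages was at 0.27, and Fcer1g at -0.31 in macrophages and 0.061 in monocytes. A fold of 2 left 596 genes higher and 305 lower in macrophages and 639 and 94 in monocytes. Genes lower in monocytes numbered 194 with at least 30 UMIs, 787 with no minimum above 1 UMI, and 514 to 578 leaving out each RT library. Leaving out each RT library, the difference in activating share ran from -1.38 to 4.16 percentage points in macrophages and 5.85 to 12.5 in monocytes. The causes were not tested. Unnamed sub-cluster 9 was counted among macrophages and the Gzmg-led one among NK cells, both chosen after seeing the data. Sub-cluster 9 scored nearest to mast cells or basophils, with macrophages second. This brought Fcgr3 in NK cells to 0.47 (0.05 to 4.73 over all settings). Leaving out shared barcodes, also chosen then, left Fcgr3 at 1.29 in macrophages. Depth limits Fcgr3 in NK cells and every NT neutrophil value. No paired analysis was possible because NT was 1 library and the labels name no pairs of NT and RT samples.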
